A study of Homo sapiens with 32 samples.

Results

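The transcripts described here are 10 genes that the tumour suppressor p53 can switch on and whose products promote cell death, chosen by name out of the 60107 genes counted. They comprise the cell surface receptors FAS, TNFRSF10A and TNFRSF10B, the mitochondrial proteins BBC3, PMAIP1 and BAX, and TP53I3, AEN, TP53INP1 and PHLDA3, which act by other routes. The choice was made with earlier results of these data known. For each symbol exactly 1 gene identifier was found in the count table. A count was present for 9 of the 10 genes in each of the 32 libraries, whereas TNFRSF10A had no count in any of them.

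p53 is a transcription factor that is stabilised after DNA damage, when the kinase ATM phosphorylates it and loosens the hold of its ubiquitin ligase MDM2. It binds response elements in its target genes and raises their transcription. Some targets halt the cell cycle, and others sensitise cells to death ligands or release the mitochondrial death pathway that BCL2 family proteins hold in check.

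RNA was sequenced from HEK293T cells, a line of human embryonic kidney origin that carries the SV40 large T antigen, which binds p53, and from U2OS cells, an osteosarcoma line. Cells received the topoisomerase I poison camptothecin (CPT; 100 nM in HEK293T, 400 nM in U2OS), the ATM inhibitor KU-55933 at 9 μM (HEK293T), or the solvent DMSO for 24 h, followed by 48 h of recovery. A CRISPR clone of U2OS lacking ATM was set beside wild-type U2OS cells. Each condition has 4 libraries, named here by number, with 8 labelled HEK293T DMSO. Libraries 26 to 29 are U2OS CPT, 30 to 33 U2OS DMSO and 22 to 25 HEK293T DMSO. Libraries 18 to 21 are labelled as an ATM knockout in HEK293T and are read as the ATM inhibitor. That is the only loss of ATM function the study describes in HEK293T. The study also made an ATM knockout of HEK293 cells, for which it describes no RNA sequencing. QuantSeq 3′ mRNA sequencing yields fragments from the 3′ end of a transcript. Depth was 1232674 to 6362433 counts on genes.

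For libraries 1 to 17 the profiles go against the labels. A set of 8 genes typical of U2OS cells (CAV1, CD44, THBS1, COL1A1 and CLU among them) summed to 4270 to 8814 CPM, counts scaled to the same total in every library, in libraries 1 to 8, and to 76.9 to 222 CPM in libraries 10 to 17. In the well-labelled sets the same sum was 5025 to 10072 CPM in U2OS and 82.1 to 126 CPM in HEK293T. The 5 genes taken as typical of HEK293T, with LIN28B, NEFM and ZIC2 among them, summed to 73.8 to 159 CPM in libraries 1 to 8 and to 466 to 701 CPM in 10 to 17. Of the other two, NEFL was higher in U2OS DMSO than in HEK293T DMSO (165 ± 11.2 against 69.5 ± 12.3 CPM, SD, n = 4) and PAX2 stayed at or under 9.42 CPM, and neither separated libraries 1 to 8 from 10 to 17. This goes against the labelled line in 14 of the 16 libraries and fits it in library 1 (U2OS WT) and library 17 (HEK293T DMSO). Libraries 10, 12, 14 and 16 carry the label U2OS ATM KO and 2, 4, 6 and 8 the label HEK293T CPT. Of the libraries set against them, 11, 13 and 15 are labelled U2OS WT and 17 HEK293T DMSO, while 3, 5 and 7 are labelled HEK293T DMSO and 1 U2OS WT. The rule that chose the comparisons reads 10, 12, 14 and 16 as HEK293T CPT and 2, 4, 6 and 8 as U2OS ATM KO. Mean CPM was also set against the control abundances listed beside the proteins of each experiment. Of 1820 choices of 4 among these 16 libraries, 11, 13, 15 and 17 came closest for HEK293T CPT (median difference 0.0145 on the log10 scale over 815 genes, next choice 0.0204) and 1, 3, 5 and 7 for the U2OS knockout (0.0101 over 246 genes, next choice 0.0215). Both matches are loose. For the ATM inhibitor, 22 to 25 came closest of 70 choices among 18 to 25, at 0.000201 over 528 genes (next choice 0.00823). Its scaling used those 8 libraries alone and the earlier matches all 16, so the differences are not like for like. Results from libraries 1 to 17 are therefore given by library number, and none of them is read as the direction of a condition.

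ATM transcript itself was present in every library. It lay between 28.8 and 39.8 CPM in the libraries labelled U2OS ATM KO, against 21.2 to 36.3 CPM in 11, 13, 15 and 17. The libraries 2, 4, 6 and 8 held 34.2 to 61.7 CPM and 1, 3, 5 and 7 held 53.4 to 68.4 CPM. None of these differences passed the test. An edit in the coding part need not lower the count of 3′ fragments, so ATM does not check the labels.

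Promoter sequences bear on genes that move together, and RefSeq (GRCh38.p14) gives a window from 250 bases before to 50 bases after the start for 6 of the 10 genes: FAS, BBC3, PMAIP1, BAX, TP53I3 and AEN. These windows were searched on both strands for a p53 response element, taken as 2 adjoining copies of the p53 half-site consensus with at most 2 mismatches over the 20 bases. Such an element stood in 2 of their 8 windows, in 1 of the 3 windows of FAS and in that of AEN. Among all 35116 windows 0.649% held one. The window of FAS at chr10:88991181-88991480 (plus strand) and that of AEN at chr15:88621090-88621389 (plus strand) follow, 5′ to 3′, with the element in capitals, together with the element from the promoter of MDM2 at chr12:68808767-68809066 (plus strand), the best known p53 target among regulators of p53, for comparison.
FAS: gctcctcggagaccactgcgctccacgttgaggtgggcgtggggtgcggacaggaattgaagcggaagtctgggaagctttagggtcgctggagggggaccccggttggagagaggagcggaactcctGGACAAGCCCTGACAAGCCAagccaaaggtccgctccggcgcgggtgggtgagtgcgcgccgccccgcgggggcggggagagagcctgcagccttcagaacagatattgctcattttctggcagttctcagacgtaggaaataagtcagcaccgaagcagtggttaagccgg
AEN: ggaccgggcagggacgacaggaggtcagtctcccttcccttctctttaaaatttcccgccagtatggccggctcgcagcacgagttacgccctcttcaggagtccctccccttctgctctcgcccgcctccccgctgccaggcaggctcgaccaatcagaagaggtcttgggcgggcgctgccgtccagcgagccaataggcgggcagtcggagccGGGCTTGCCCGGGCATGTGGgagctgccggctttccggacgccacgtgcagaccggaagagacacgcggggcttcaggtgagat
MDM2 element: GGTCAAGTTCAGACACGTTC
In FAS the element began 122 bases before the start of that window, the most downstream of the 3 starts. The other FAS windows end at 88990847 and 88990963, so the element lies after those starts. In AEN it began 34 bases before the start, and both elements held 2 mismatches. The other windows held none, which says only that these letters are absent there. A match describes the sequence and is not evidence of binding.

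In U2OS cells treated with CPT, FAS, TP53INP1, PHLDA3 and TNFRSF10B rose more than 2-fold, and AEN, TP53I3, BBC3 and PMAIP1 rose by less. Thus 4 of the 9 measured genes passed the 2 cutoffs of the study, a log2 fold change beyond 1 in either direction together with an edgeR p that stays under 0.05 once adjusted by the method of Benjamini and Hochberg, where 7.97% of all 19080 genes tested were called higher. By the adjusted p alone 8 of the 9 rose, against 16.6% of all genes. BAX did not pass. The median log2 fold change of the 9 genes was 1.00, against 0.0079 over all genes.

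The receptors come first. FAS, the receptor of Fas ligand, stood at 67.7, 92.1, 65.1 and 63.3 CPM in the CPT libraries 26 to 29 and at 15.1, 12.7, 10.8 and 9.61 CPM in the DMSO libraries 30 to 33. The groups lie far apart, with library 27 the highest. The log2 fold change was 2.76 (SE 0.16, adjusted p = 7.02e-15 by edgeR), the largest among the 9 genes in this comparison. FAS shares exon sequence with ACTA2, smooth muscle actin, which is transcribed from the opposite strand. ACTA2 also rose, from 2.36 ± 0.93 to 32.8 ± 2.26 CPM (SD, n = 4). Whether the counting used strand is not given in the sources used here, and the part of ACTA2 reads in FAS counts was not tested.

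TNFRSF10B, the TRAIL receptor DR5, gave 93.3, 83.7, 78.6 and 70.8 CPM with CPT and 42.9, 48.9, 35.2 and 40.6 CPM with DMSO. Every CPT library was above every DMSO library (log2 fold change 1.14, SE 0.13, adjusted p = 1.82e-08 by edgeR). RHOBTB2, on the opposite strand with shared exon sequence, did not move with it (16.4 ± 2.50 against 23.8 ± 6.48 CPM, SD, n = 4, adjusted p = 0.138 by edgeR). TNFRSF10A, the other TRAIL death receptor (DR4), had 0 counts out of 116495925 over all libraries, which allows up to 0.0258 CPM, for counting error only. Its exons overlap those of TNFRSF10A-AS1 on the opposite strand, also listed at 0, and the reason for the zeros was not tested.

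Genes of the mitochondrial route changed least. BBC3 encodes PUMA, a BH3-only protein that neutralises the guardians of the BCL2 family. It stood at 132, 136, 143 and 147 CPM with CPT and at 119, 119, 93.2 and 107 CPM with DMSO, without overlap (log2 fold change 0.52, SE 0.11, adjusted p = 3.83e-04 by edgeR). PMAIP1 encodes NOXA, a BH3-only protein that binds MCL1. Its CPT values of 106, 122, 122 and 124 CPM overlapped the DMSO values of 86.4, 118, 92.3 and 107 CPM (log2 fold change 0.40, SE 0.12, adjusted p = 0.0117 by edgeR), and without library 30 the adjusted p was 0.055. BAX, which forms pores in the outer mitochondrial membrane, stood at 6.77, 12.1, 15.9 and 26.2 CPM with CPT. In DMSO it stood at 10.5, 13.8, 11.7 and 15.9 CPM, inside that range. The change of 0.38 (log2, 95% confidence interval -0.14 to 0.89, adjusted p = 0.273 by edgeR) was not larger than the spread, fell to -0.02 without library 29, and was called by adjusted p (0.0342) without library 26.

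Of the genes that act by other routes, TP53INP1, a stress protein that takes part in autophagy and in p53 activation, changed most. It reached 55.6, 41.3, 41.2 and 46.8 CPM with CPT against 13.9, 20.99, 14.9 and 14.7 CPM with DMSO, again without overlap (log2 fold change 1.70, SE 0.16, adjusted p = 2.44e-10 by edgeR). PHLDA3, a repressor of AKT signalling, stood at 51.8, 38.5, 38.8 and 44.6 CPM against 18.2, 16.5, 20.5 and 29.6 CPM (log2 fold change 1.17, SE 0.17, adjusted p = 1.52e-06 by edgeR). Library 33 held the highest DMSO level of PHLDA3 and also of TP53I3.

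AEN, a nuclease that follows p53 activation, stood at 55.0, 56.5, 64.8 and 55.5 CPM with CPT and at 32.1, 35.1, 29.005 and 34.1 CPM with DMSO. Its change (log2 0.997, SE 0.13, adjusted p = 2.11e-07 by edgeR) lay just under the fold cutoff and passed it without any 1 of libraries 26, 29, 31 or 33. TP53I3, or PIG3, a quinone oxidoreductase linked to oxidative stress, stood at 39.7, 44.98, 37.7 and 40.9 CPM against 20.99, 24.4, 22.3 and 35.8 CPM. All CPT libraries were above all DMSO libraries (log2 fold change 0.80, SE 0.16, adjusted p = 2.06e-04 by edgeR), and the change was 1.06 without library 33. In all, 7 of the 9 genes did not overlap between the groups, as did 11.2% of all genes in this direction.

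**Figure D1:**
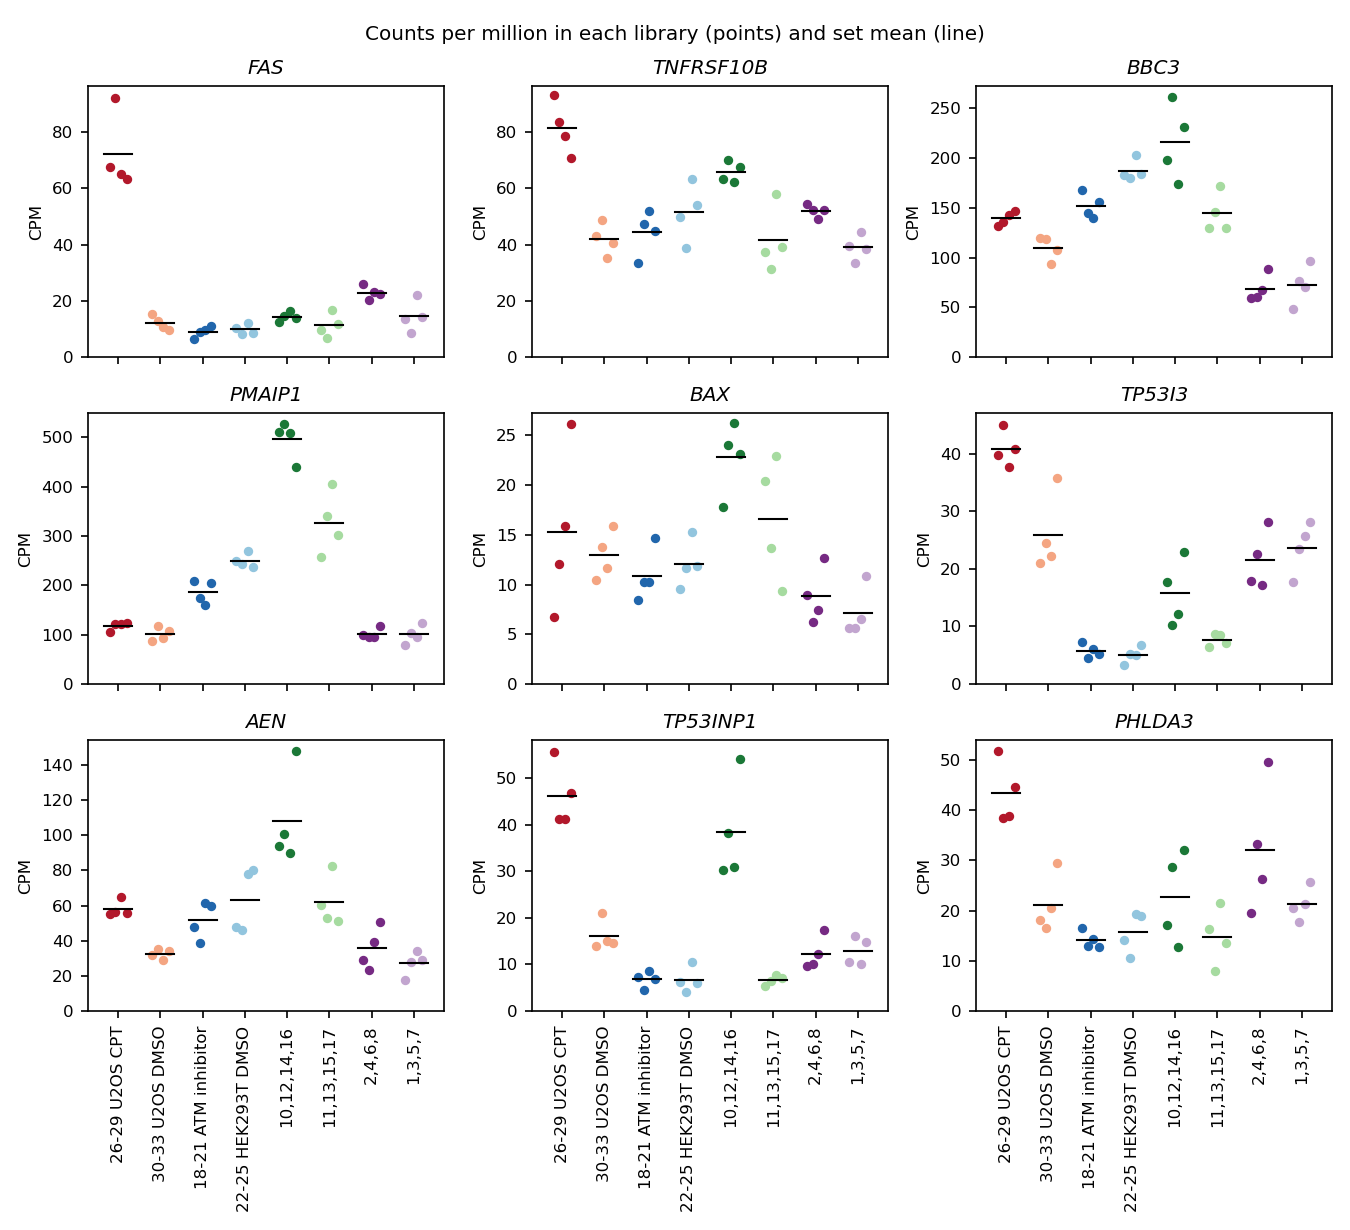
Level of each of the 9 detected genes in CPM (vertical axis, linear, from 0) in each library (points) of the 8 sets (horizontal axis), with the mean of the set as a line. FAS stands at 63.3 to 92.1 CPM in the U2OS CPT libraries and at or under 25.96 CPM in the others, while TP53INP1 is high both there and in libraries 10, 12, 14 and 16.

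Levels in this comparison depend on the scaling. The fold changes use TMM factors, and with library size alone the median of all genes moved to -0.16 (log2), the share of calls that were higher fell from 59.2% to 44.9%, and TNFRSF10B (log2 fold change 0.97) lost its call, while FAS (2.59), TP53INP1 (1.53) and PHLDA3 (1.02) kept theirs. PMAIP1 (0.23, adjusted p = 0.148 by edgeR) was then no longer higher by adjusted p, which left 7 of the 9. The U2OS marker genes moved with CPT as well. They summed to 8447 to 10072 CPM against 5025 to 6239 CPM, with 7 of the 8 higher by adjusted p and none at 0 in any library, and their part in the result was not tested.

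The surrounding pathway was read from fixed lists. Of 25 other p53 targets 24 were measured, and 18 rose by both cutoffs in U2OS CPT (24 by adjusted p alone, median log2 fold change 1.42). The secreted growth factor GDF15 rose by 3.63 (SE 0.16), from 30.3 ± 8.13 to 334 ± 50.9 CPM (SD, n = 4). GADD45A, which takes part in DNA repair and growth arrest, rose by 2.33 (SE 0.13), and the cell cycle inhibitor CDKN1A by 2.24 (SE 0.11), all on the log2 scale. MDM2 rose from 132 ± 8.62 to 469.7 ± 13.3 CPM (SD, n = 4). GDF15 thus changed more than FAS, and the other three less than FAS and more than TP53INP1.

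In the death receptor pathway 9 of 11 genes were measured and CASP10, an initiator caspase, was the 1 called higher. It had 12 to 16 counts in the CPT libraries and 0 or 1 in DMSO. The TRAIL gene TNFSF10 had 0 or 1 count with CPT and 2 to 5 with DMSO and was not called (adjusted p = 0.0613 by edgeR). All 22 genes of the mitochondrial pathway were measured, with 2 called higher and 3 called lower (5.50% of all genes were called lower) and a median log2 fold change of 0.12. BCL2L1, which encodes the survival protein BCL-XL, rose from 32.98 ± 4.74 to 80.2 ± 14.9 CPM (log2 fold change 1.44, SE 0.14). BCL2A1, a relative of BCL2L1, was called on 0 to 6 counts against 0 or 1. BMF, a BH3-only protein, fell from 21.5 ± 5.55 to 1.02 ± 0.16 CPM, and BCL2L11, the BH3-only protein BIM, from 46.4 ± 11.8 to 11.6 ± 1.90 CPM. Survivin, encoded by BIRC5, fell from 122 ± 25.8 to 46.1 ± 5.58 CPM (all SD, n = 4). The BH3-only genes BMF and BCL2L11 and the BH3-only members BBC3 and PMAIP1 thus went in opposite directions. Of the other BH3-only genes of the list, BID was higher by adjusted p alone (log2 fold change 0.66, adjusted p = 5.08e-04 by edgeR). BAD, BIK and HRK did not pass. Of the 12 regulators of p53, 11 were measured and MDM2 was the 1 called by both cutoffs. By adjusted p alone 2 were higher and 4 lower, against 16.6% and 15.3% of all genes, and their median log2 fold change was -0.22.

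**Figure D2:**
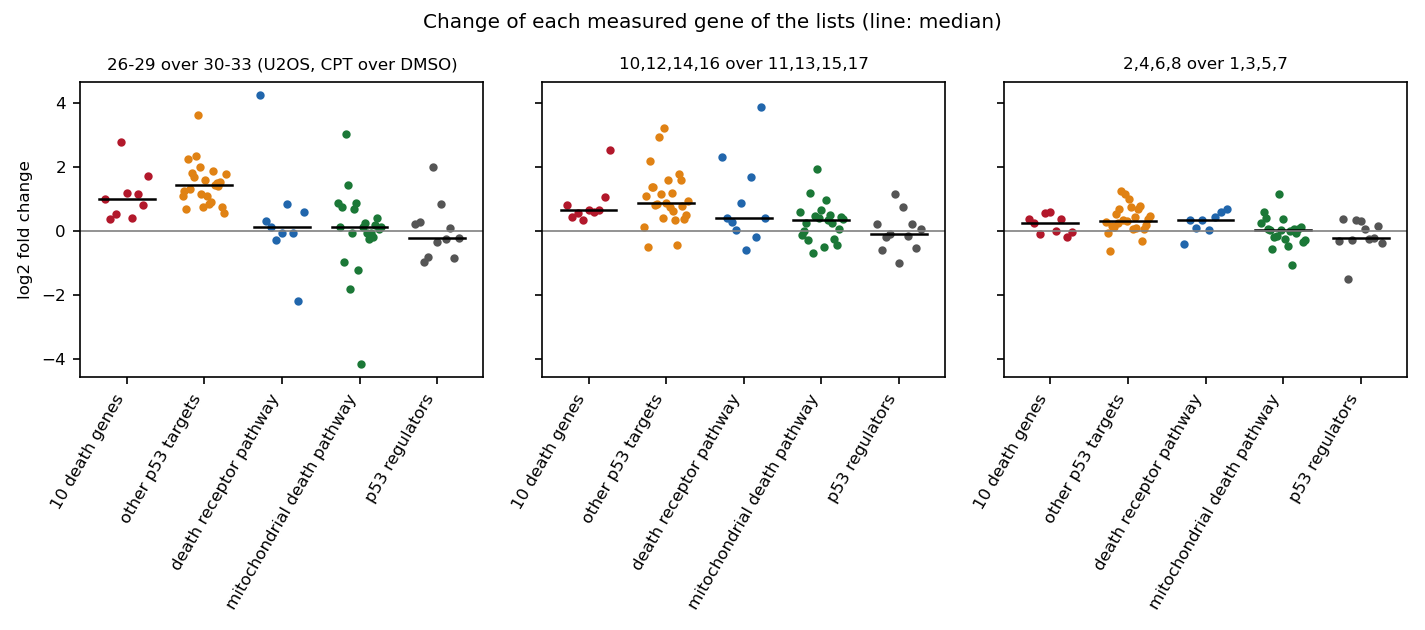
log2 fold change (vertical axis) of each measured gene (points) of the 10 death genes and of 4 other lists (horizontal axis), with the median as a line, for libraries 26 to 29 over 30 to 33, libraries 10, 12, 14 and 16 over 11, 13, 15 and 17, and libraries 2, 4, 6 and 8 over 1, 3, 5 and 7. In U2OS CPT the death genes have a median of 1.00 and the other p53 targets of 1.42, against 0.12 for the mitochondrial pathway, which spreads from -4.17 to 3.03.

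With the ATM inhibitor in HEK293T cells no member passed the test in either direction (0 of 9). Over all 18413 genes 0% were called higher and 0.00543% lower by the adjusted p alone. At an unadjusted p under 0.05 there were 2 of the 9 members and 1019 of all 18413 genes. DESeq2 called 0 of the 9. FAS stood at 6.51, 9.04, 9.58 and 10.96 CPM with the inhibitor (libraries 18 to 21) and at 10.2, 8.28, 12.3 and 8.59 CPM with DMSO (libraries 22 to 25). The 95% confidence interval of its log2 fold change, -0.51 to 0.34, leaves out changes of the size seen in U2OS CPT.

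Both BH3-only members were lower in every inhibitor library than in every DMSO library. PMAIP1 stood at 208, 174, 161 and 204 CPM against 249, 244, 270 and 238 CPM (log2 fold change -0.36, SE 0.10, adjusted p = 0.753 by edgeR). BBC3 stood at 168, 144, 140 and 156 CPM against 183, 180, 203 and 184 CPM (log2 fold change -0.24, SE 0.10, adjusted p = 0.878 by edgeR). Non-overlap in this direction was found for 1.96% of all genes. A two-sided exact permutation test of each single gene on log2(CPM + 1) gave p = 0.0286 for both, the smallest value that 4 against 4 libraries allow. Groups without overlap always give this value, so the test adds nothing to the non-overlap. Neither gene passed the adjustment over all genes. The other 7 measured members overlapped, with log2 fold changes from -0.23 for AEN to 0.26 for TP53I3. No gene of the other p53 targets, the death receptor pathway, the mitochondrial pathway or the p53 regulators was called (0 of 25, 0 of 9, 0 of 21 and 0 of 11 measured). CDKN1A changed by -0.07 (log2, SE 0.17), MDM2 by -0.11 (SE 0.13) and ATM by -0.06 (SE 0.12), on the same scale.

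The libraries 10, 12, 14 and 16 differed from 11, 13, 15 and 17 in TP53INP1 and TP53I3, both higher by both cutoffs, so that 2 of the 9 members passed where 9.52% of all 19464 genes were called higher. By the adjusted p alone 6 of the 9 were higher, against 17.6% of all genes. The same 6 did not overlap between the groups, as did 16.4% of all genes. The median log2 fold change of the members was 0.63, against 0.04 over all genes. The share of reads assigned to no gene also differed, at 15.8% to 18.5% in the first set and 9.39% to 10.99% in the second, and its part in the result was not tested. The U2OS marker sum was 142 to 222 CPM against 76.9 to 82.8 CPM, 4 of the 8 genes higher by adjusted p, CD44 at 0 in 3 of the 4 libraries of the second set and THBS1 in 2, and its part was likewise not tested.

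TP53INP1 stood at 30.3, 38.3, 31.03 and 54.1 CPM in 10, 12, 14 and 16 and at 5.39, 6.43, 7.78 and 7.09 CPM in 11, 13, 15 and 17 (log2 fold change 2.53, SE 0.20, adjusted p = 1.99e-09 by edgeR). TP53I3 stood at 17.8, 10.2, 12.2 and 22.9 CPM against 6.40, 8.63, 8.44 and 7.09 CPM (log2 fold change 1.06, SE 0.23, adjusted p = 1.06e-03 by edgeR). Libraries 10 and 16 carry the higher TP53I3 values, and the change was 0.79 without library 16 and 0.97 without library 11, both under the fold cutoff.

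The mitochondrial members BBC3 and PMAIP1 and the genes AEN and TNFRSF10B were higher by adjusted p alone. PMAIP1, at 510, 527, 509 and 439 CPM against 258, 339, 405 and 302 CPM, changed by 0.58 (log2, SE 0.13, adjusted p = 9.44e-04 by edgeR). BBC3 changed by 0.56 (SE 0.13), from 144 ± 19.96 to 216 ± 38.3 CPM, AEN by 0.80 (SE 0.16), from 61.7 ± 14.2 to 108 ± 26.7 CPM, and TNFRSF10B by 0.66 (SE 0.15), from 41.4 ± 11.6 to 65.9 ± 3.63 CPM (SD, n = 4).

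FAS did not pass here. It stood at 12.6, 14.5, 16.3 and 13.99 CPM in 10, 12, 14 and 16 and at 9.43, 6.94, 16.9 and 11.7 CPM in 11, 13, 15 and 17, with library 15 above all others (log2 fold change 0.35, 95% confidence interval -0.10 to 0.79, adjusted p = 0.22 by edgeR). Without library 15 the change was 0.59 and the adjusted p 0.0351. ACTA2, on the opposite strand, was higher in the same comparison (50.7 ± 20.7 against 17.2 ± 10.8 CPM, SD, n = 4, adjusted p = 9.90e-05 by edgeR). BAX (log2 fold change 0.43, adjusted p = 0.113) and PHLDA3 (0.63, adjusted p = 0.0522, both by edgeR) did not pass. Without library 15 BAX and PHLDA3 were called by adjusted p. PHLDA3 was called also without library 10 or 14, with RLE factors, without a filter and with all libraries in one fit.

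Other p53 targets were higher in 11 of 25 (20 by adjusted p alone, 2 lower). PLK2, a polo-like kinase, differed by 3.22 (log2, SE 0.21), GDF15 by 2.94 (SE 0.38) and CDKN1A by 2.17 (SE 0.22), while SFN, a cell cycle regulator, was called on 2 to 16 counts against 2 to 4. MDM2 differed by 1.14 (SE 0.13) and ATM by 0.22 (SE 0.16, not called). In the death receptor pathway 3 of 10 measured genes were called higher. CASP10 was at 5.25 ± 1.75 against 1.09 ± 0.39 CPM and the decoy receptor TNFRSF10D at 30.8 ± 6.17 against 9.40 ± 0.64 CPM (SD, n = 4), while TNFSF10 was called on 0 to 3 counts against 0. Of 21 mitochondrial genes measured 2 were called higher, BCL2L11 (35.3 ± 8.36 against 15.4 ± 2.45 CPM, SD, n = 4) and BIK, a BH3-only protein, on 1 to 8 counts against 0 to 3. BCL2L11 was thus higher here and lower in U2OS CPT.

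**Figure D3:**
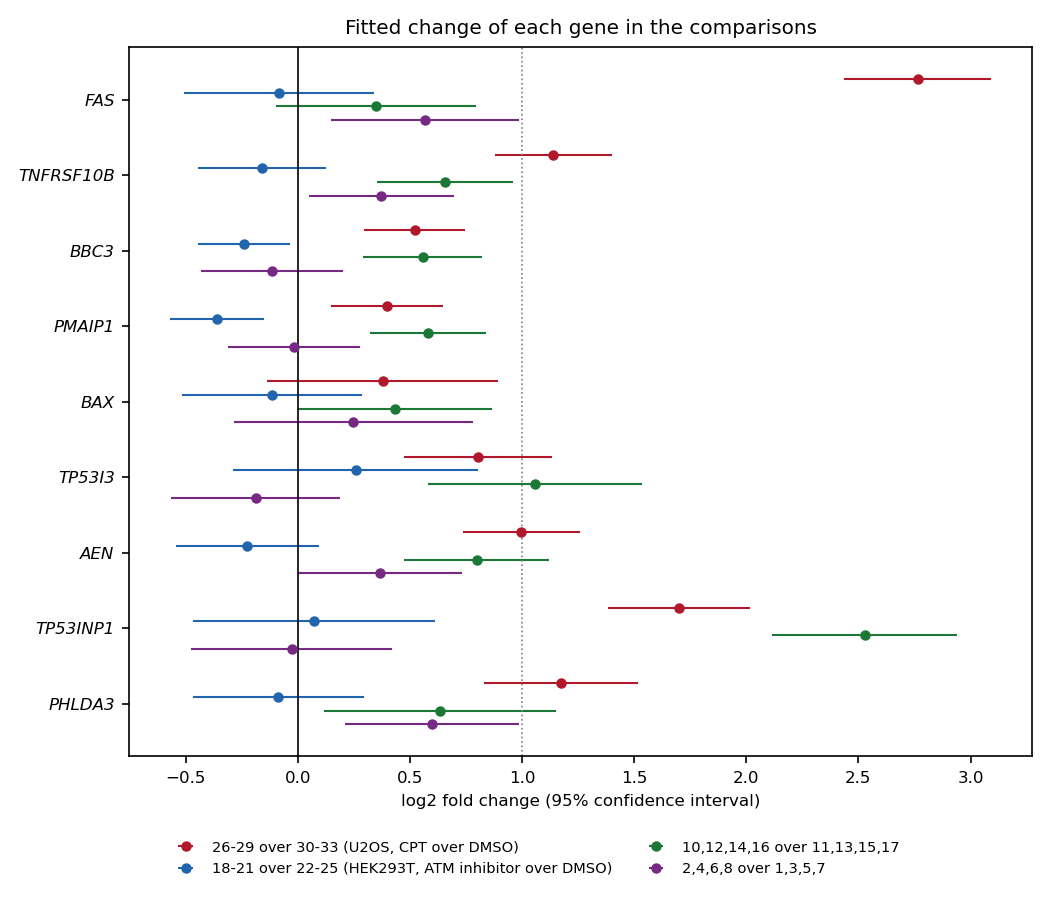
Fitted log2 fold change (horizontal axis) of each of the 9 measured genes (vertical axis) in the comparisons, with 95% confidence intervals as bars, a solid line at 0 and a dotted line at the fold cutoff of 1. Red marks libraries 26 to 29 over 30 to 33, blue 18 to 21 over 22 to 25, green 10, 12, 14 and 16 over 11, 13, 15 and 17, and purple 2, 4, 6 and 8 over 1, 3, 5 and 7. FAS reaches 2.76 in red alone and TP53INP1 reaches 1.70 in red and 2.53 in green, while the blue and purple values stay under 1.

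Between libraries 2, 4, 6 and 8 and libraries 1, 3, 5 and 7 no member passed both cutoffs (0 of 9; 2.80% of all 18591 genes were called higher) and 1 passed by adjusted p alone (6.43% of all genes). At an unadjusted p under 0.05 there were 3 of the 9 members and 4724 of all 18591 genes. DESeq2 called 0 of the 9 by either rule. PHLDA3 stood at 19.5, 33.2, 26.2 and 49.7 CPM against 20.5, 17.7, 21.4 and 25.6 CPM (log2 fold change 0.60, SE 0.19, adjusted p = 0.0293 by edgeR). The groups overlap, since library 2 lay below 3 of the 4 libraries on the other side, and the call was lost without library 1, 3, 4, 5 or 8 (log2 fold change 0.32 without 8), with DESeq2 and with all libraries in one fit.

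FAS stood at 25.96, 20.2, 23.3 and 22.3 CPM in 2, 4, 6 and 8 and at 13.4, 8.65, 21.9 and 14.2 CPM in 1, 3, 5 and 7. Library 5 alone reached into the range of the first set (log2 fold change 0.57, SE 0.21, adjusted p = 0.062 by edgeR), and without it the change was 0.86 and passed (adjusted p = 0.00838), as it did without library 8 (adjusted p = 0.039). TNFRSF10B was the 1 member without overlap, as were 7.61% of all genes, at 54.4, 52.4, 48.9 and 52.4 CPM against 39.5, 33.3, 44.6 and 38.4 CPM (log2 fold change 0.37, SE 0.16, adjusted p = 0.123 by edgeR). RHOBTB2, on its opposite strand, was also higher here (30.4 ± 11.2 against 18.4 ± 5.996 CPM, SD, n = 4, adjusted p = 0.0105 by edgeR). The U2OS marker sum was 4270 to 5201 CPM in the first set and 5968 to 8814 CPM in the second, and its part in these values was not tested. The other members had log2 fold changes from -0.19 for TP53I3 to 0.37 for AEN. BAX had the fewest counts of the 9, with 8 in library 1 and 11 in library 2.

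Of 24 other p53 targets measured 2 were called higher, GDF15 by 1.25 (log2, SE 0.17) and PERP, a membrane protein of cell junctions, by 1.15 (SE 0.16). CDKN1A differed by 0.15 (SE 0.16) and MDM2 by 0.34 (SE 0.15), neither of them called. CHEK1, a checkpoint kinase of the p53 regulators, was lower (17.6 ± 4.34 against 47.7 ± 6.75 CPM, SD, n = 4). CASP9, the initiator caspase of the mitochondrial pathway, was called lower on few counts (2.94 ± 1.08 against 5.29 ± 1.65 CPM, SD, n = 4). CASP9 had 4 to 19 counts against 4 to 23, and its CPM values overlapped between the sets. ATM (-0.31, SE 0.17) was not called. None of the 8 measured genes of the death receptor pathway was called by both cutoffs, and 1 was higher by adjusted p alone.

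The differences themselves were then compared. The U2OS CPT change minus the difference between 10, 12, 14 and 16 and 11, 13, 15 and 17 was 2.41 for FAS (log2, SE 0.27, adjusted p = 1.77e-09 by an interaction term in edgeR) and -0.84 for TP53INP1 (SE 0.27, adjusted p = 0.0203). FAS was the 1 member above (9.86% of 22363 genes were above by adjusted p) and TP53INP1 the 1 below (10.5%). The other 7 did not pass (TNFRSF10B, at 0.48, did without library 13, 29 or 31), with 95% confidence intervals that for BBC3 ran from -0.39 to 0.32 and for AEN from -0.24 to 0.63. The value for TP53INP1 passed in 16 of 19 settings, with adjusted p from 0.00969 to 0.0954, and was lost without library 11, 16 or 31.

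**Figure D4:**
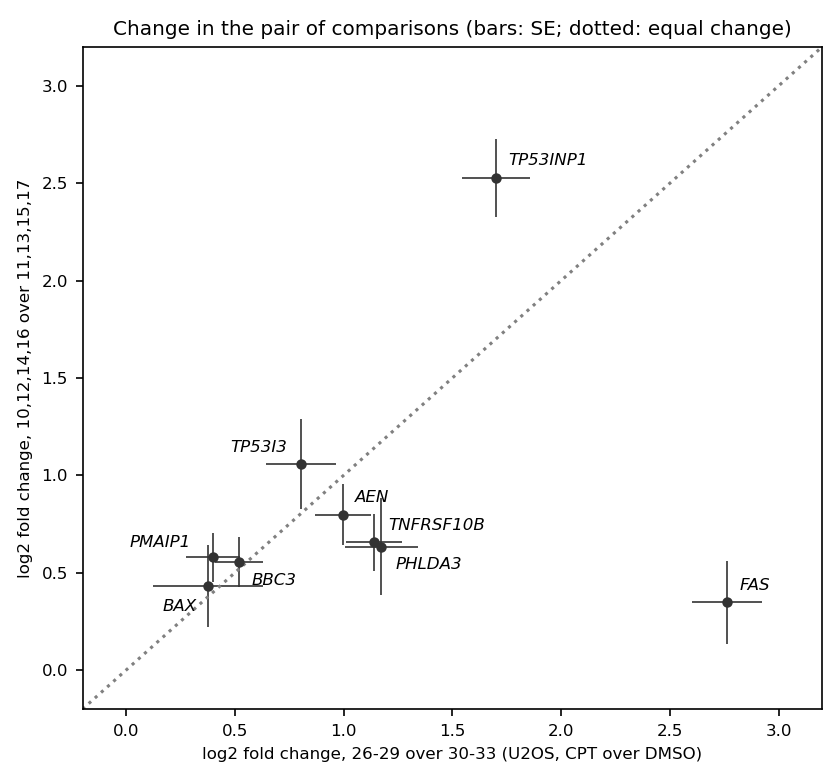
log2 fold change of the 9 measured genes in libraries 26 to 29 over 30 to 33 (horizontal axis) and in 10, 12, 14 and 16 over 11, 13, 15 and 17 (vertical axis), with standard errors as bars and a dotted line of equal change. FAS lies far to the right of the line, at 2.76 and 0.35, TP53INP1 lies above it, at 1.70 and 2.53, and the other 7 genes lie closer to it.

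Against the difference between 2, 4, 6 and 8 and 1, 3, 5 and 7 the U2OS CPT change was larger for 5 of the 9 members by adjusted p, where 9% of 20539 genes were. These were FAS (2.20, SE 0.27), TP53INP1 (1.71, SE 0.27), TP53I3 (0.99, SE 0.25), TNFRSF10B (0.77, SE 0.21) and BBC3 (0.64, SE 0.20), on the log2 scale. BBC3 lost the call without library 7 or 32, and AEN (0.62, adjusted p = 0.0512 by edgeR) gained it without library 1, 6, 7, 8 or 33. AEN passed in 7 of 19 settings in total. Both tests use the same 8 libraries of U2OS CPT and DMSO and are not independent of each other.

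At baseline the lines differed in 7 of the 9 members by adjusted p. In U2OS DMSO 4 were higher than in HEK293T DMSO (libraries 22 to 25) and 3 lower, against 32% and 30.1% of all 19739 genes, and by both cutoffs 2 were higher and 1 lower (21.8% and 18.1% of all genes). TP53I3 stood at 25.9 ± 6.77 CPM in U2OS and 5.06 ± 1.44 CPM in HEK293T (log2 fold change 2.59, SE 0.22), and TP53INP1 at 16.1 ± 3.28 against 6.68 ± 2.75 CPM (1.46, SE 0.23). PMAIP1 was lower in U2OS, at 101 ± 14.2 against 250 ± 13.9 CPM (-1.08, SE 0.12, and -0.97 without library 30; SD, n = 4). FAS (0.50) and PHLDA3 (0.68) were higher and BBC3 (-0.55) and AEN (-0.72) lower by adjusted p alone. TNFRSF10B (-0.08) and BAX (0.33) did not pass. FAS passed in 6 of 11 settings, and not without library 23, 25, 30 or 31.

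The 8 sets can be ordered by the mean level of each gene. For FAS the order was U2OS CPT (72.1 CPM), libraries 2, 4, 6 and 8 (22.9), libraries 1, 3, 5 and 7 (14.5), libraries 10, 12, 14 and 16 (14.3), U2OS DMSO (12.1), libraries 11, 13, 15 and 17 (11.3), HEK293T DMSO (9.83) and the ATM inhibitor (9.02), and past the first each neighbour overlapped the next in its libraries. PMAIP1 did not follow this order. Its lowest level in libraries 10 to 25 was 161 CPM, above its highest of 124 CPM in libraries 1 to 8 and 26 to 33. For TP53INP1 the ranges of U2OS CPT (41.2 to 55.6 CPM) and of libraries 10, 12, 14 and 16 (30.3 to 54.1 CPM) overlapped, and every other library lay at or under 20.99 CPM.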

How the data were processed

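The authors made libraries with the QuantSeq 3′ mRNA kit (FWD) and counted reads per gene with the QuantSeq FWD UMI pipeline 2.3.1 on the BlueBee platform 1.10.18, and they deposited raw counts for 32 libraries without normalization. The genome build and annotation are not given in the sources used here. All columns were used, while 5 summary rows and 92 spike-in rows were left out of library sizes. The share of reads on no gene was 9.39% to 39.9%. CPM scales the counts on genes of each library to the same total, and 3 counts correspond to 0.472 to 2.43 CPM.

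With the filter and cutoffs of the study, edgeR 4.0.16 under R 4.3.3 compared 4 libraries with 4 by its quasi-likelihood F statistic after TMM scaling, in place of the likelihood ratio test the study names, which is given as another setting. A gene entered if 2 or more of the libraries held over 1 count, and p-values were adjusted over every gene that entered. SE is the absolute log2 fold change divided by the square root of F. Other settings were the likelihood ratio test, DESeq2 1.42.0, RLE factors, filterByExpr, no filter, all libraries in one fit, summary and spike-in counts kept in the library sizes, other choices of control, and leaving out 1 library at a time. Library size alone was added after seeing the data, as was the form of CPM used to find the control libraries. The procedure was tested on simulated data. The members and the gene lists were chosen with earlier results of these data known. Named are all 10 members, of each list at most 4 called genes per direction with the largest change, and MDM2, CDKN1A and ATM. BID, BAD, BIK and HRK were added in U2OS CPT after values were seen. Some genes of the fixed lists are not reported here. Genes overlapping the members were read from GENCODE 29 and chosen after values were seen. The labels call the libraries of a condition separate samples, and the study describes independent repeats. Symbols were matched for 56104 gene identifiers.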

Additional observations from a re-analysis of the deposited data

Results flagged for a closer look

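Of 72 groups of 4 libraries (9 genes in 8 sets) 5 held a library that stood apart by Dixon's criterion, where chance gives about 1 in 20. FAS stood at 92.1 CPM in library 27 against a median of 65.1 CPM in the other U2OS CPT libraries, AEN at 64.8 CPM in library 28 against 55.5 CPM, and PMAIP1 at 106 CPM in library 26 against 122 CPM. TP53INP1 stood at 20.99 CPM in library 31 against 14.7 CPM in the other U2OS DMSO libraries, and BBC3 at 203 CPM in library 24 against 183 CPM in the other HEK293T DMSO libraries. Without these libraries the log2 fold changes of FAS and TP53INP1 in U2OS CPT were 2.61 and 1.82.

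Changes that differed between comparisons, by an interaction term in edgeR, were those of FAS (2.41 on the log2 scale) and TP53INP1 (-0.84) between U2OS CPT and libraries 10, 12, 14 and 16 over 11, 13, 15 and 17. Between U2OS CPT and libraries 2, 4, 6 and 8 over 1, 3, 5 and 7 they were those of FAS (2.20), TP53INP1 (1.71), TP53I3 (0.99), TNFRSF10B (0.77) and BBC3 (0.64).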

How the results depend on the processing

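No paired analysis was possible because the labels share no replicate number between groups, and which libraries came from the same repeat is not recorded in them. In U2OS CPT 4 members passed both cutoffs under DESeq2 and the likelihood ratio test too. Without a cutoff on fold change the members called were 8 in U2OS CPT, 6 in libraries 10, 12, 14 and 16 and 1 in libraries 2, 4, 6 and 8. The filterByExpr filter tested fewer genes and called 1652 genes (main 2569), 1461 (2718) and 644 (974) in these comparisons. With the ATM inhibitor, where 0 genes were called, 2 were called by the likelihood ratio test and without a filter, 1 with all libraries in one fit and with library size alone, and 0 to 14 with 1 library left out, the 14 without library 21.

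In libraries 2, 4, 6 and 8 the 1 member called by adjusted p became 0 under DESeq2, with all libraries in one fit and without libraries 17 and 1, and 0 or 1 with 1 library left out. Library size alone turned PMAIP1 to 0.016 and TP53INP1 to 0.0082 there. Grouped by label, 2, 4, 6 and 8 were set against all 8 libraries labelled HEK293T DMSO, which are 3, 5, 7, 17 and 22 to 25. Of these, 17 and 22 to 25 had marker sums like HEK293T, unlike 2, 4, 6 and 8. In that grouping 2 members passed (FAS 1.11, PHLDA3 1.05), 2 by adjusted p alone, and TP53I3 (0.82), AEN (-0.21) and TP53INP1 (0.57) changed sign. The part of the cell line in these values was not tested. Grouped by label, 10, 12, 14 and 16 were set against 1, 11, 13 and 15, of which library 1 had a marker sum like U2OS. That comparison kept 1 member called, 1 by adjusted p alone, and 631 genes. Against all 8 libraries labelled HEK293T DMSO the ATM inhibitor turned BBC3 to 0.093, BAX to 0.049, TP53I3 to -1.36, AEN to 0.039 and TP53INP1 to -0.57. Of those 8, libraries 3, 5 and 7 had marker sums like U2OS. TP53I3 stood there at 23.4, 25.7 and 28.1 CPM, against 3.29 to 6.81 CPM in 22 to 25. The cause of these sign changes was not tested.

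Leaving out 1 library gave 1 or 2 members in 10, 12, 14 and 16 (1 without 11 or 16) and 1 to 3 members by adjusted p in the difference between U2OS CPT and that comparison. Sign changes, in uncalled values, were those of BAX in U2OS CPT (-0.016 to 0.63), of FAS (-0.15 to 0.042), BAX (-0.25 to 0.016), TP53INP1 (-0.10 to 0.39) and PHLDA3 (-0.23 to 0.025) with the ATM inhibitor, of PMAIP1 (-0.078 to 0.031), BAX (-0.027 to 0.49) and TP53INP1 (-0.22 to 0.091) in 2, 4, 6 and 8, and of TNFRSF10B (-0.19 to 0.023) between the lines. In the differences between comparisons they were BAX (-0.43 to 0.21), BBC3 (-0.13 to 0.046) and TP53I3 (-0.43 to 0.053) against 10, 12, 14 and 16, and BAX (-0.26 to 0.40) against 2, 4, 6 and 8. BAX had the fewest counts of the 9 detected members, 8 in library 1 and 11 in library 2.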
